A study of Mus musculus with 24 samples.

Results

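The 7 genes described here code for long non-coding RNAs (lncRNAs) of the mouse brain, and were followed through 24 RNA-seq libraries of the nucleus accumbens (NAc), a ventral striatal region of the reward system. They are Meg3, Rian and Mirg, which lie next to each other in the imprinted Dlk1 to Dio3 domain of chromosome 12, and Malat1, Neat1, Miat and Snhg11, which are lncRNAs of other chromosomes known from neurons or from nuclear bodies. They are a list of named genes, drawn up with earlier results of these data known, out of the 52636 genes of the count files. All 24 mice were C57BL/6 by the labels (C57BL/6J in the study's methods) and 50 days old, and each library came from the bilateral NAc of 1 mouse, punched from frozen brain. In the MSUS groups pups had gone through maternal separation combined with unpredictable maternal stress from postnatal day 1 to 14, an early life stress model, while Con mice had not. There were 6 Con females (labelled CONF), 6 MSUS females (MSF), 6 Con males (CONM) and 6 MSUS males (MSM). The labels do not say which mice shared a litter, so the p-values measure the spread between mice and cannot separate litters.

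An imprinted domain is a stretch of genome in which genes are read from only the maternal or only the paternal copy. In the Dlk1 to Dio3 domain the protein-coding genes Dlk1, Rtl1 and Dio3 are expressed from the paternal copy, and Meg3, Rian and Mirg from the maternal copy, where they form a long run of same-strand transcription with many microRNA (miRNA) and small nucleolar RNA (snoRNA) genes in it. Brain is among the tissues where these maternal RNAs are most abundant. Malat1 collects in nuclear speckles, which store splicing factors, and Neat1 is the scaffold of paraspeckles, another nuclear body. Miat, also called Gomafu, forms its own spots in the nuclei of neurons, and Snhg11 is a small nucleolar RNA host gene with high expression in neurons.

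Positions are those of GRCm38, the assembly on which the reads were counted, with gene models of GENCODE M21. Meg3 (ENSMUSG00000021268.17) spans chr12:109541001-109571726, Rian (ENSMUSG00000097451.10) chr12:109603940-109661716 and Mirg (ENSMUSG00000097391.8) chr12:109729764-109749460, all on the plus strand. Malat1 (ENSMUSG00000092341.2) lies at chr19:5795690-5802672 and Neat1 (ENSMUSG00000092274.2) at chr19:5824708-5845478, both on the minus strand and 22036 bases apart. Miat (ENSMUSG00000097767.8) lies at chr5:112213228-112229395 on the minus strand, and Snhg11 (ENSMUSG00000044349.15) at chr2:158375638-158386145 on the plus strand. The annotation types Snhg11 as protein coding.

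Sequence around the starts of Meg3 and Malat1 is shown because Meg3 is the first gene of the maternal run and Malat1 the most abundant of the 7 RNAs. Each run covers 250 bases before and 50 bases after the RefSeq start of one transcript, on the gene's own strand in GRCm38.p6 coordinates, chr12:109540746-109541045 for Meg3 and chr19:5802623-5802922 for Malat1. Capitals mark the cyclic AMP response element TGACGTCA in Meg3, and in Malat1 the shorter motif TGACG or its reverse complement CGTCA.
Meg3: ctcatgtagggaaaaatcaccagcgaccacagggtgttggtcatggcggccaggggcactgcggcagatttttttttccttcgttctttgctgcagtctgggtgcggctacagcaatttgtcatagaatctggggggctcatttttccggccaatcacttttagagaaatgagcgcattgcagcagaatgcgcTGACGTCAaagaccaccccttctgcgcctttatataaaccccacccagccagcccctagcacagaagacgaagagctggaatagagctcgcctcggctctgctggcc
Malat1: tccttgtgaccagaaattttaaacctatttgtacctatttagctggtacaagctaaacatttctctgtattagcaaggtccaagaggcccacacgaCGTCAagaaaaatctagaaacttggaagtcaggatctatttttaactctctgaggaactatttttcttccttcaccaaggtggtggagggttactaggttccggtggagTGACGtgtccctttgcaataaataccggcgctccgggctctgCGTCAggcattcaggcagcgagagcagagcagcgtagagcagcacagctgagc
The Meg3 window held 1 TGACGTCA, a motif found on either strand in 1.79% of the 32851 RefSeq promoter windows of the same length. The Malat1 window held no TGACGTCA but 3 matches to TGACG, counted on both strands, which occurs in 20.8% of windows. TGACG is contained in TGACGTCA, so the motifs overlap. A match of letters is a description and not a binding site.

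The miRNAs of the Meg3 to Mirg run are shown because the hairpins that yield them lie in this run and were counted here as gene models of their own. RefSeq placed 105 mature miRNA sequences from 57 hairpin genes in this run, with 97 different seeds, the bases 2 to 8 that pair with targets. Only 8 seeds were shared by 2 or more mature names. Pairs that share a seed (in capitals) and 3 miRNAs with a seed of their own are given 5′ to 3′.
miR-379-5p: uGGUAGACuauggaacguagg
miR-1193-5p: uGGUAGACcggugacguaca
miR-379-3p: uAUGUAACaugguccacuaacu
miR-411-3p: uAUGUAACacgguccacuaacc
miR-376c-5p: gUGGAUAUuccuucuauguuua
miR-376b-5p: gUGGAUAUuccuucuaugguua
miR-341-5p: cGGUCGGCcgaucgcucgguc
miR-127-3p: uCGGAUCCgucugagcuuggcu
miR-134-5p: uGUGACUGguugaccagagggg
Mature miRNAs are too short for these libraries, so none of the values below is a level of a mature miRNA.

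The libraries held between 39923666 and 70575745 read pairs assigned to genes, with a median of 53316200, and every member was counted in every library and passed the filter on low counts in every comparison. Together the 7 lncRNAs took 1.60% to 2.47% of all gene counts. Several library measures moved with groups or with the members and are given with the results they touch. The first is the share of uniquely mapped pairs that fell in no annotated exon on the sense strand. The second is the summed level of 6 genes that mark cortical excitatory neurons, which a striatal punch should hold in small amounts. The third is the summed level of 7 oligodendrocyte markers. Markers of striatal projection neurons, the main NAc neurons, summed to between 2172 and 5930 CPM, counts scaled to the library total, in all libraries, so the labelled tissue was present in each.

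The 7 RNAs covered a wide range of abundance. Per kb of exon, in counts normalized by library size factors, Malat1 stood at 105938 ± 10180 (SD, n = 24), Meg3 at 10742 ± 1751, Snhg11 at 7306 ± 735 and Rian at 2052 ± 248. Miat at 609 ± 279, Mirg at 599 ± 87.3 and Neat1 at 136 ± 24.3 were the low members. Malat1 had 9.86 times the level of Meg3, the next in order, and ranked 9 among all genes on this scale. The ratio depends on the exon lengths used, 6983 bases for Malat1 and 18089 for Meg3. Meg3 exceeded Snhg11 in 24 of 24 libraries, although their ranges over libraries overlapped. Miat and Mirg did not separate, since Miat was above Mirg in 8 of 24 libraries. The other neighbours in the order had ranges that did not overlap. Without division by length, mean normalized counts were 739763 for Malat1 and 194307 for Meg3. Their ranks among all genes were then 2 and 8, against 9 and 69 per kb, and the order of the 7 RNAs was the same. Miat was the most variable member, with a coefficient of variation of 45.8% over all libraries against 9.61% for Malat1.

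**Figure D1:**
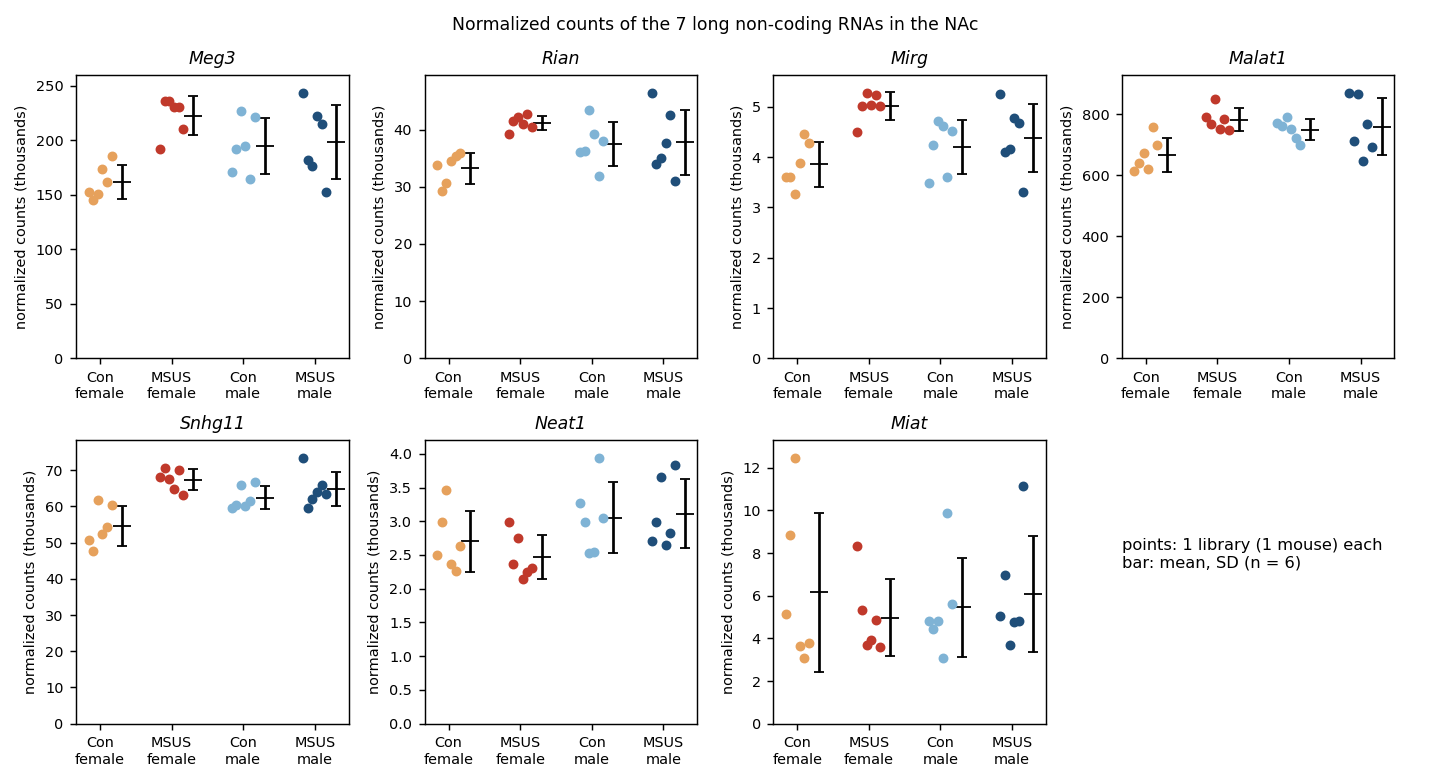
Normalized counts of each of the 7 lncRNAs by group, on a linear axis per gene. Each point is 1 mouse (6 per group), the black dash beside the points is the group mean and the error bar 1 SD. In females the MSUS points of Meg3, Rian, Mirg and Snhg11 all lie above the Con points, whereas the male groups overlap for every gene.

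The first comparison asked how these RNAs differed between MSUS and Con females. Meg3, Rian, Mirg, Malat1 and Snhg11 were higher in MSUS females by 1.18 to 1.38 times, and the tests of Neat1 and Miat did not pass. Thus 5 of the 7 members rose, where 13.1% of the 20571 genes tested were called higher, 11.9% lower and 25.1% in either direction (edgeR quasi-likelihood test, Benjamini-Hochberg adjusted p under 0.10). The split of all calls moved with the scaling, from 2698 higher of 5156 called to 3470 of 4865 when libraries were scaled on protein-coding genes alone, and the 5 members were called higher in both. Of the 842 lincRNA genes tested, a class of lncRNAs between coding genes, 151 (17.9%) were called higher and 15 lower. These are bulk samples, in which fewer cells of a type and less RNA per cell cannot be told apart.

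Meg3, the maternal transcript that opens the run, had normalized counts with a lowest value of 144955, a median of 156898 and a highest of 185798 in Con females, against 192159, 230280 and 236254 in MSUS females. The lowest MSUS value was above the highest Con value. The log2 fold change was 0.47 (SE 0.071, adjusted p = 0.00304), a fold of 1.38. Rian, the host of C/D-box snoRNAs further along the run, went from 29210, 34160 and 35837 (lowest, median and highest) in Con to 39234, 41254 and 42701 in MSUS females, and the groups did not overlap. Its log2 fold change was 0.31 (SE 0.052, adjusted p = 0.00371), but with offsets for GC content and length it was -0.012 and the call was lost. Mirg, a miRNA host at the far end of the run, went from 3276, 3754 and 4468 to 4508, 5032 and 5273. Here too the groups stayed apart, by a narrow margin of 4468 against 4508. Its log2 fold change was 0.38 (SE 0.068, adjusted p = 0.00527).

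Malat1, the speckle RNA, had counts of 612526, 656165 and 759018 (lowest, median and highest) in Con females and 749018, 776555 and 850802 in MSUS females. The groups overlapped, and 4 of 6 MSUS females exceeded every Con female. The log2 fold change of 0.23 (SE 0.060, adjusted p = 0.0214) was the smallest of the 5 that passed, and with offsets for GC content and length it was 0.16 and did not pass. Snhg11, with counts of 47782, 53356 and 61910 in Con and 63044, 67876 and 70493 in MSUS females, had no overlap between groups. Its log2 fold change was 0.31 (SE 0.063, adjusted p = 0.00879). The groups thus did not overlap for 4 of 7 members, where 3.81% of all genes tested had every MSUS female above every Con female.

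Neat1, the paraspeckle scaffold, had counts of 2266, 2564 and 3469 (lowest, median and highest) in Con females and 2147, 2335 and 2983 in MSUS females. The ranges overlapped over most of their length. Its log2 fold change was -0.13 (SE 0.11, adjusted p = 0.451), with an approximate 95% interval of -0.35 to 0.09. Miat had counts of 3078, 4456 and 12443 in Con and 3600, 4409 and 8354 in MSUS females. The medians were close and the spread within groups was wide, and the log2 fold change was -0.31 (SE 0.37, adjusted p = 0.591), with an interval of -1.03 to 0.42.

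The library numbers in the labels fall into a set 1 to 12 and a set 13 to 24, each with 3 mice of every group. Within the first set the log2 differences were 0.52 for Meg3, 0.33 for Rian, 0.42 for Mirg, 0.26 for Malat1 and 0.31 for Snhg11. Within the second they were 0.42, 0.30, 0.35, 0.21 and 0.31 in the same order. The directions held in both sets, while none of the 5 was called within a set of 3 against 3, where 23 and 0 genes of all those tested were called.

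The share of read pairs outside annotated exons (called the share in no gene, though pairs in introns count too) differed between the same groups. It was 32.7% ± 1.55 (SD, n = 6) in Con females and 39.97% ± 2.72 in MSUS females, with no overlap (exact permutation test, two-sided, p = 0.00216, the smallest that 6 against 6 allows). Malat1, Rian, Meg3, Snhg11 and Mirg rose with this share over the 24 libraries, while Neat1 and Miat showed no relation that passed. For Meg3, Pearson's r was 0.74 (permutation p = 7e-05, adjusted over 21 relations 0.00024) and Spearman's rho 0.73 (p = 7e-05), and r was 0.68 without the 2 libraries farthest from the median share. Within the library sets it was 0.83 and 0.70, and for deviations from the group means 0.50. The r for Malat1 was 0.78, for Rian 0.78, for Snhg11 0.73 and for Mirg 0.64 (rho 0.78, 0.80, 0.70 and 0.64, adjusted permutation p at most 0.00207 for either). For deviations from the group means r was lower, at 0.62, 0.61, 0.45 and 0.43 in the same order. The p-values belong to r over all 24 libraries, which includes the differences between groups, and none is given for the deviations. Over the 24 libraries r was -0.11 for Neat1 and -0.25 for Miat (adjusted permutation p = 0.603 and 0.245). With the share as a covariate, 0 members and 0 of all genes were called in females, and the log2 differences were 0.37 for Meg3, 0.33 for Rian, 0.37 for Mirg, 0.13 for Malat1 and 0.19 for Snhg11. In females the share and the group cannot be told apart, since every MSUS library had a higher share than every Con library.

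**Figure D2:**
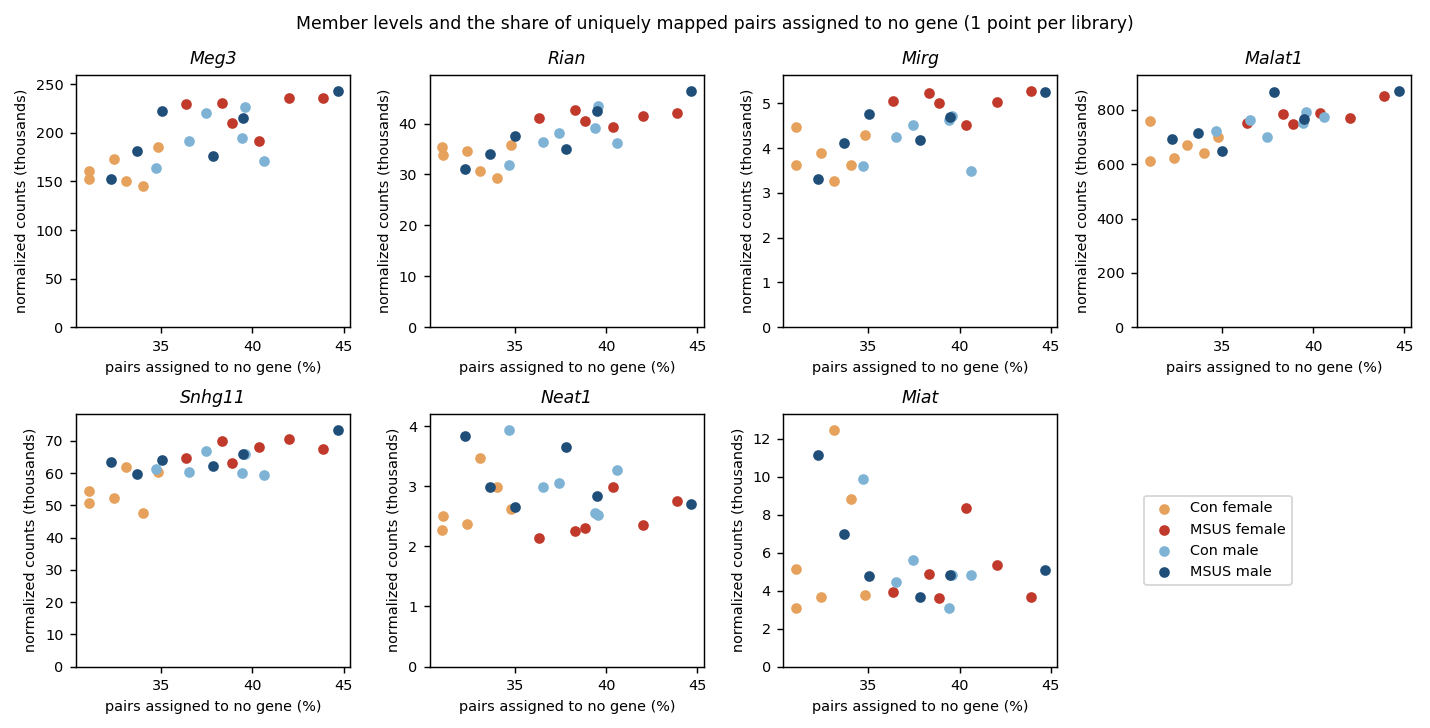
Normalized counts of each member, against the percent of uniquely mapped pairs assigned to no gene, with 1 point per library coloured by group. Meg3 rose with this percent (r = 0.74 over 24 libraries), and the Con females (31.0% to 34.8%) lie to the left of the MSUS females (36.3% to 43.9%).

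Some markers of other cell types were also lower in MSUS females, although no marker sum passed after adjustment. Summed cortical excitatory markers were 610 ± 486 CPM (SD, n = 6, range 136 to 1407) in Con females and 173 ± 224 CPM (8.87 to 601) in MSUS females (exact permutation p = 0.0606, adjusted 0.218), and all 6 of the genes had log2 differences below 0, of which 1 was called. Summed oligodendrocyte markers were 4955 ± 600 and 4271 ± 289 CPM (exact permutation p = 0.0260, adjusted 0.218), with 5 of 7 genes called lower. Pan-neuronal markers had 3 of 6 genes called lower, astrocyte markers 3 of 7, interneuron markers 2 of 6 and oligodendrocyte precursor markers 1 of 4. These lists are small, and 11.9% of all genes tested were called lower. The sums of pan-neuronal, astrocyte and interneuron markers were lower too, each with an adjusted exact permutation p of 0.218. No striatal, microglial or endothelial marker was called. The 5 members stayed called when the pair of Con females with the highest cortical sums (replicates 2 and 3) was left out, with log2 differences of 0.41 for Meg3, 0.24 for Rian, 0.31 for Mirg, 0.22 for Malat1 and 0.31 for Snhg11. With a cortical marker score as covariate 4 members stayed called, Malat1 being lost, and 1720 genes of all those tested were called. With an oligodendrocyte score 0 members stayed called, and 25 genes of all those tested were called.

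**Figure D3:**
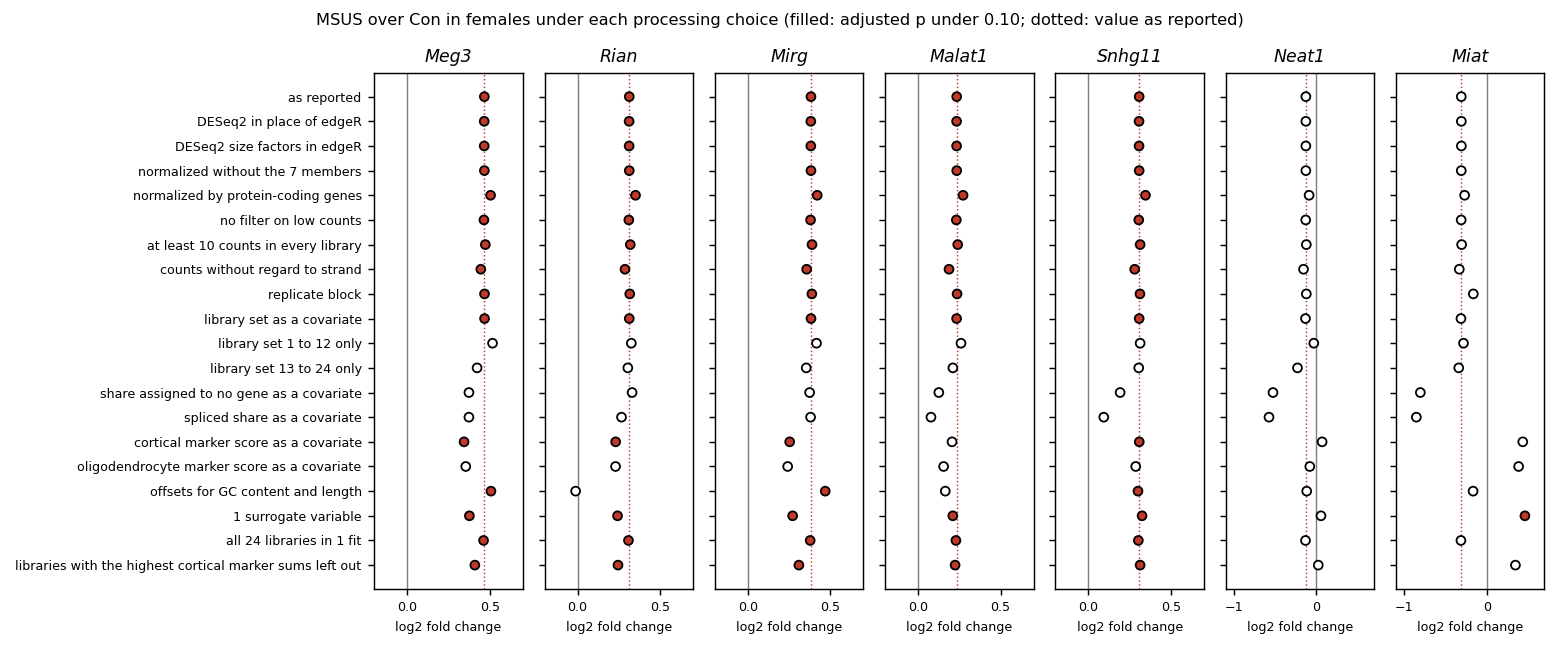
Log2 difference between MSUS and Con females for each member under 20 settings of the analysis (rows), with points filled where the adjusted p was under 0.10 and a dotted line at the value reported. Meg3 stays above 0 in every row, while Miat lies on both sides of 0.

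The cortical marker sum also ordered the members over all 24 libraries, in opposite directions. On the log2 scale, Meg3 fell with it (Pearson's r = -0.80, Spearman's rho = -0.80, each with a permutation p of 1e-05, the smallest that these permutations can give, and r = -0.80 without the 2 farthest libraries). Rian had an r of -0.74, Mirg of -0.80 and Snhg11 of -0.46 (rho -0.76, -0.83 and -0.50, adjusted permutation p of r 0.00024, 7e-05 and 0.0295), while Malat1 had -0.32 (adjusted permutation p = 0.146). Neat1 and Miat rose with it, with r of 0.63 and 0.62 and rho of 0.61 and 0.60 (adjusted permutation p of r 0.00216 and 0.0022). With the oligodendrocyte sum r was -0.51 for Meg3, -0.58 for Rian, -0.65 for Mirg, -0.44 for Malat1, 0.59 for Neat1 and 0.60 for Miat (adjusted permutation p at most 0.0377), and -0.28 for Snhg11 (adjusted permutation p = 0.200). For deviations from the group means, r with the cortical sum was -0.76 for Meg3, -0.65 for Rian, -0.75 for Mirg, -0.065 for Malat1, -0.23 for Snhg11, 0.71 for Neat1 and 0.64 for Miat. With the oligodendrocyte sum it was -0.41, -0.52, -0.54, -0.44, -0.075, 0.42 and 0.68 in the same order. The 5 libraries with the highest Miat counts were CONF replicate 3 (12443), MSM replicate 6 (11158), CONM replicate 5 (9899), CONF replicate 2 (8844) and MSF replicate 1 (8354). Their cortical sums were 1407, 1390, 983, 932 and 601 CPM. What part tissue makeup has in these levels was not tested.

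In males no member passed the same comparison. Meg3 had counts of 164017, 193344 and 226722 (lowest, median and highest) in Con males and 152533, 198301 and 243078 in MSUS males, with a log2 difference of 0.02 (SE 0.12, adjusted p = 1.00) and an approximate 95% interval of -0.21 to 0.26. The MSUS males spread to both sides of the Con males. Rian had counts of 31953, 37168 and 43483 against 31072, 36284 and 46374, and Mirg of 3494, 4378 and 4725 against 3313, 4428 and 5257. Both pairs of ranges overlapped almost fully, with log2 differences of 0.01 (SE 0.10) and 0.06 (SE 0.11).

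Malat1 went from 699392, 756276 and 790897 in Con males to 648331, 740648 and 869418 in MSUS males, and the MSUS group had the wider spread (SD 92640 against 33812). Its log2 difference was 0.02 (SE 0.082). Snhg11 had 59534, 60840 and 66817 against 59708, 63709 and 73273, a log2 difference of 0.05 (SE 0.060) with an interval of -0.06 to 0.17. Neat1 had 2527, 3023 and 3932 against 2653, 2912 and 3839, and Miat 3085, 4823 and 9899 against 3667, 4939 and 11158. For these, too, the groups overlapped, with log2 differences of 0.03 (SE 0.12) and 0.16 (SE 0.31). In males 0 members, and 0.0193% of genes in each direction, had groups that did not overlap. By edgeR 0 members and 0 of 20691 genes (0.0%) were called, and 0 members and 191 genes had an unadjusted p under 0.05. DESeq2 also called 0 members. The share of pairs in no gene was 38.0% ± 2.23 in Con and 37.2% ± 4.55 in MSUS males (exact permutation p = 0.684).

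Whether the MSUS difference was larger in females than in males was tested as an interaction over all 24 libraries. The log2 female difference minus the male one was 0.44 for Meg3 (SE 0.14, unadjusted p = 0.00529, adjusted p = 0.200). It was 0.30 for Rian (SE 0.12, adjusted p = 0.213), 0.32 for Mirg (SE 0.13, adjusted p = 0.233), 0.21 for Malat1 (SE 0.10, adjusted p = 0.265) and 0.25 for Snhg11 (SE 0.087, adjusted p = 0.203). Neat1 (-0.16, SE 0.17) and Miat (-0.47, SE 0.50) had wide errors. By edgeR 0 members and 0 of 21500 genes (0.0%) passed, although 5 members and 4031 genes had an unadjusted p under 0.05. DESeq2 called 1 member, Meg3, and 467 genes. Without MSM replicate 1, edgeR called 5 members and 3031 genes, so 1 library decides this call.

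**Figure D4:**
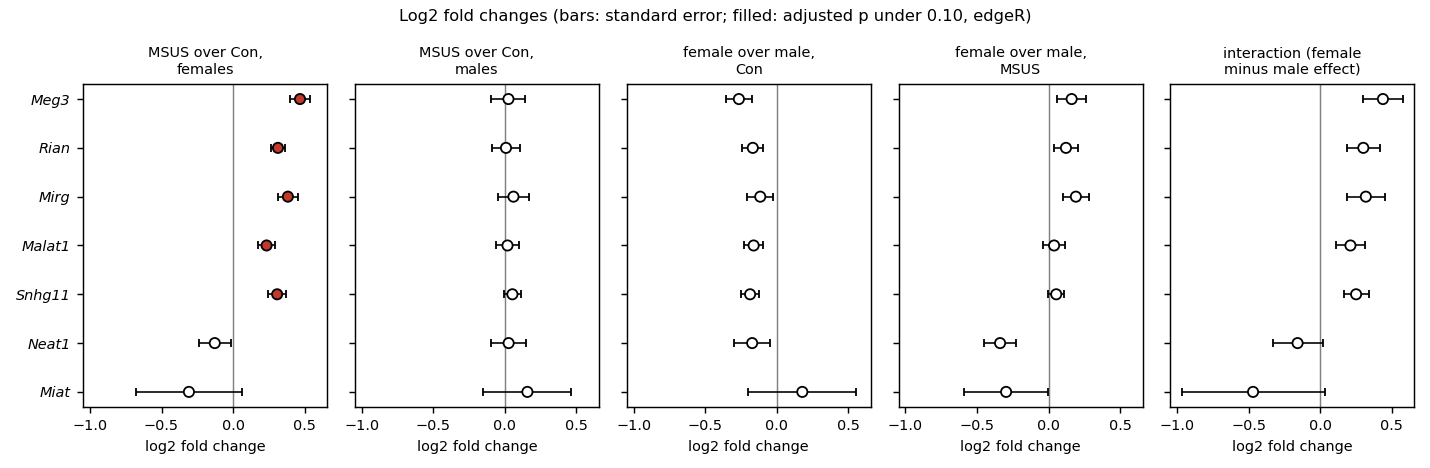
Log2 fold changes of the 7 lncRNAs (rows) in the 5 comparisons (panels), with bars of 1 standard error. Filled points had an adjusted p under 0.10. The 5 filled points are those of Meg3, Rian, Mirg, Malat1 and Snhg11 in females, between 0.23 and 0.47, and the male values lie between 0.01 and 0.16.

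The sexes were then compared within each condition. In Con mice the log2 differences of females over males were -0.26 for Meg3 (SE 0.090, adjusted p = 0.154), -0.17 for Rian (SE 0.075, adjusted p = 0.261), -0.16 for Malat1 (SE 0.067, adjusted p = 0.232) and -0.19 for Snhg11 (SE 0.066, adjusted p = 0.166). Mirg (-0.12), Neat1 (-0.17) and Miat (0.18) differed by less than 2 SE. By edgeR 0 of 7 members passed, where 2.64% of 20641 genes did and 1.84% were lower in females, and the 4 members named first were among 3670 genes with an unadjusted p under 0.05. DESeq2 called 3 of them, Meg3, Malat1 and Snhg11, among 1511 genes of all those tested, against 544 by edgeR. edgeR called Snhg11 without CONF replicate 3 (584 genes called) and Meg3 and Rian without CONM replicate 5 (1395 genes). Without both of these libraries, which had the highest cortical sums of the Con mice, it called Meg3 and Snhg11 (1171 genes). The share of pairs in no gene ranged from 31.0% to 34.8% in Con females and from 34.7% to 40.6% in Con males, a difference that was not tested. With this share as a covariate edgeR called 0 members and 11 genes between Con sexes, and with the cortical score 0 members and 39 genes.

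In MSUS mice the female to male differences were 0.16 for Meg3 (SE 0.10), 0.12 for Rian (SE 0.084), 0.19 for Mirg (SE 0.089), 0.04 for Malat1 (SE 0.080) and 0.05 for Snhg11 (SE 0.056). Neat1 had the largest ratio to its error, at -0.34 (SE 0.11, unadjusted p = 0.00876, adjusted p = 0.530), and 4 of 6 MSUS females were below every MSUS male. Miat stood at -0.30 (SE 0.29). By edgeR 0 members passed, against 0.135% of 20714 genes, and 1 member and 1511 genes had an unadjusted p under 0.05. DESeq2 called 0 members as well. The comparisons share groups with those of MSUS against Con, so the values are set side by side without an account of their likeness.

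**Figure D5:**
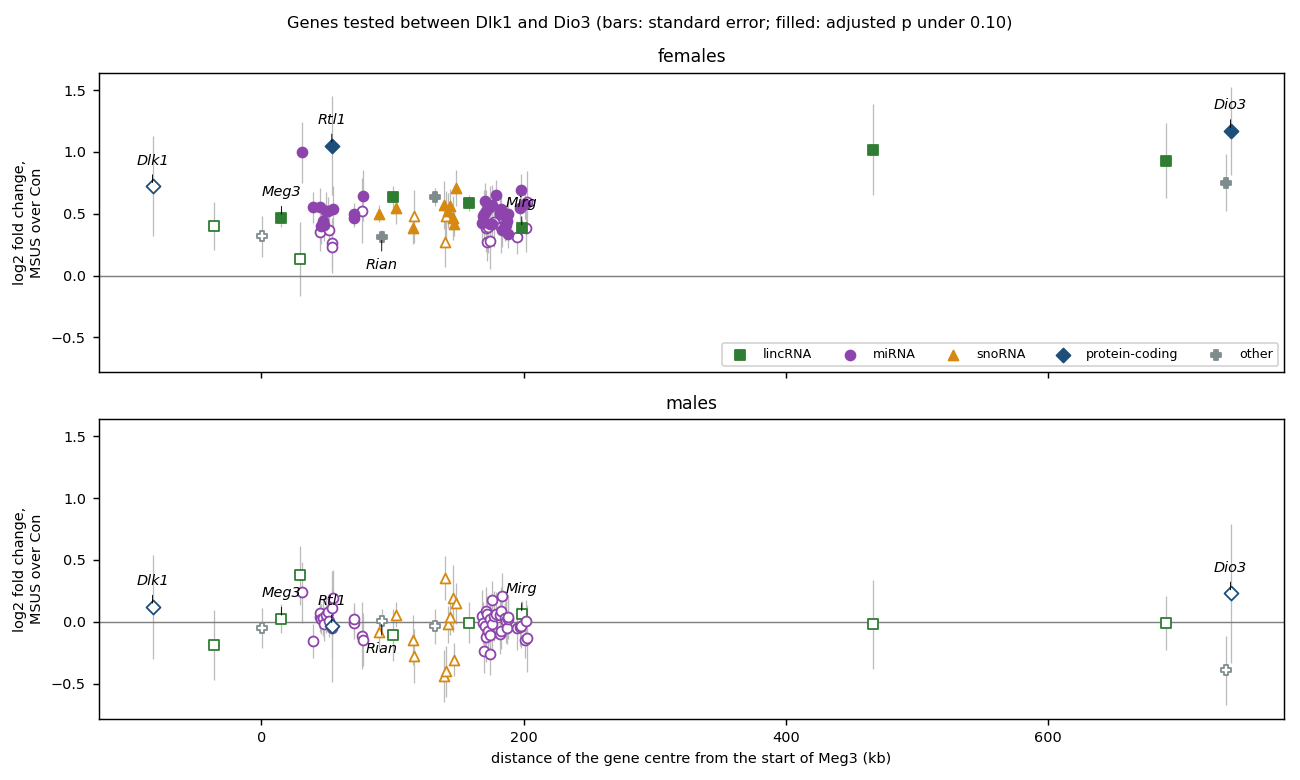
Log2 difference between MSUS and Con mice for the tested genes of the Dlk1 to Dio3 domain, by distance from the Meg3 start, for females and males. The female values lie above 0 at all 75 genes tested and the male values scatter around 0 (median -0.00084).

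The rest of the domain was examined from Dlk1 to Dio3, a stretch of 828 kb with 118 annotated genes. In females 75 were tested, and 54 (72.0%) were called higher and 0 lower, with a median log2 difference of 0.50 against -0.0027 over all genes. In males 76 were tested, of which 0 were called, and 38 lay above 0. Many of these genes lie within the same run of transcription as the long RNAs and are not independent. A read pair that overlapped several genes was counted for none of them. The count called higher in females was 36 without the 2 Con females of the highest cortical sums, 34 with 1 surrogate variable (unlabelled variation estimated from the counts), 17 with the cortical score, 13 with offsets for GC content and length, 2 with the oligodendrocyte score and 0 with the share in no gene or the spliced share (a per-library value, used as covariate only). Within the library sets it was 1 and 0.

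Among the long transcripts between the members, B830012L14Rik, a lincRNA at chr12:109695586-109702587 on the plus strand, had 927 ± 69.8 normalized counts (860 to 1035) in Con and 1387 ± 120 (1230 to 1579) in MSUS females. The groups did not overlap, and the log2 difference was 0.59 (SE 0.064, adjusted p = 0.000878). Gm37899, an unclassified gene model at chr12:109668869-109677585, had 2186 ± 257 against 3394 ± 230 counts (0.64, SE 0.073, adjusted p = 0.000963). Gm26945, a lincRNA inside the Rian gene, had 544 ± 63.8 against 843 ± 97.0 counts (0.63, SE 0.092, adjusted p = 0.00266). All 3 lie on the plus strand. In Con mice, Gm37899 (-0.41, adjusted p = 0.0678), B830012L14Rik (-0.32, adjusted p = 0.0995) and the snoRNA gene Gm23600 (-0.53, adjusted p = 0.0782) were lower in females than in males. These were the 3 of 75 domain genes tested (4.0%) that passed there, where 1.84% of all genes were called lower. Of these 75 genes, 5 lay above 0 in Con females over Con males, with a median log2 difference of -0.27. Between MSUS sexes 71 of 77 lay above 0, with a median of 0.23, and 0 were called.

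Of the 59 miRNA genes annotated on the plus strand from Meg3 to Mirg, 48 were tested in females and 34 (70.8%) were called higher, with a median log2 difference of 0.47. For miRNA genes elsewhere in the genome 46 of 181 (25.4%) were called higher and 1 lower, with a median of 0.37. Mir341, whose miR-341-5p is shown above, had 318 ± 36.0 against 449 ± 35.5 normalized counts (0.50, adjusted p = 0.00374). Mir496a (0.69, adjusted p = 0.00589), Mir433 (0.52, adjusted p = 0.0124), Mir493 (0.55, adjusted p = 0.0130) and Mir673 (1.00, adjusted p = 0.0187) were also higher. Of the hairpins behind the shared seeds, Mir379 (0.42, adjusted p = 0.0761) and Mir1193 (0.55, adjusted p = 0.0421) passed, as did Mir411 (0.48, adjusted p = 0.0261) and Mir376c (0.50, adjusted p = 0.0105). Mir376b (0.39, adjusted p = 0.213) and Mir127 (0.37, adjusted p = 0.111) did not, and with offsets for GC content and length Mir379 stood at -0.096, Mir376b at -0.26 and Mir376c at -0.52 (adjusted p = 0.0728). The Mir134 hairpin, which lies inside Mirg, had 0 counts in the files and was not tested. Pairs that overlap several genes count for none of them, so this is not a level of its RNA.

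Along the run the medians of the miRNA and snoRNA genes lay close together. The median log2 difference in females was 0.44 over the 7 tested between Meg3 and the start of Rtl1, 0.45 over the 6 across Rtl1, 0.50 over the 8 within Rian, 0.47 over the 33 between Rian and Mirg, and 0.56 over the 6 within Mirg. The snoRNA genes of the run had 9 of 12 called higher with a median of 0.49, led by Gm24564 (0.50, SE 0.068, adjusted p = 0.00194), while 23 of 164 (14.0%) were called higher outside the domain, with a median of 0.22.

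The paternally expressed genes of the domain varied more between mice than the maternal RNAs, with a coefficient of variation of 54.95% for Dlk1 among Con females against 9.61% for Meg3. Dlk1, a Notch-related transmembrane protein, had a mean of 3700 ± 2033 normalized counts (1179 to 6111) in Con and 6078 ± 1625 (3269 to 8035) in MSUS females. The groups overlapped, and the log2 difference of 0.72 (SE 0.40, adjusted p = 0.236) did not pass. Rtl1, a retrotransposon-derived gene on the minus strand, had 185 ± 104 (63.6 to 327) against 383 ± 135 (152 to 529) counts. It rose by 1.05 on the log2 scale (SE 0.40, adjusted p = 0.0924), and 5 of 6 MSUS females exceeded every Con female. Dio3, the deiodinase that inactivates thyroid hormone, had 76.7 ± 41.2 against 172 ± 63.2 counts and rose by 1.17 (SE 0.36, adjusted p = 0.0458). Dio3os, transcribed in the opposite direction next to it, rose by 0.75 (SE 0.23, adjusted p = 0.0429). In every group the lowest Dlk1 and Rtl1 counts fell in the library with the highest cortical sum. For Rtl1 these were CONF replicate 3 (63.6), MSF replicate 1 (152), CONM replicate 5 (87.0) and MSM replicate 6 (86.2). Dio3 was lowest in the same libraries, except among Con females, where replicate 2 (33.6) was lowest. What part tissue makeup has in these levels was not tested.

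Opposite to Rtl1 the maternal run is itself transcribed, a stretch known as anti-Rtl1, which the strand-specific files count as reads antisense to Rtl1. These amounted to 2844 ± 332 normalized counts (SD, n = 6, 2378 to 3155) in Con and 3797 ± 299 (3491 to 4303) in MSUS females. The groups did not overlap (ratio of means 1.34, exact permutation p = 0.00216, adjusted over 20 tests 0.0433). In males the means were 3385 ± 374 and 3399 (exact permutation p = 0.976). Over the 24 libraries there were 1111 antisense pairs for each 100 sense pairs at Rtl1, against 0.22 to 0.56 at the 7 members, so strand hardly bears on the counts of the members.

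Around the other members, the called genes named here fell near Malat1, Neat1 and Miat and rose near Snhg11. Over all genes tested, 13.1% were called higher and 11.9% lower. Within 100 kb of Malat1, Frmd8 (-0.27, adjusted p = 0.0161), which lies next to Neat1, and Sssca1 (-0.16, adjusted p = 0.0423) fell in MSUS females. Gm37376 (0.27, adjusted p = 0.120), which overlaps Malat1 on the opposite strand, did not pass. Near Neat1 Cdc42ep2 also fell (-0.31, adjusted p = 0.0503). Near Miat, Tfip11 (-0.14, adjusted p = 0.0175) and Tpst2 (-0.15, adjusted p = 0.0617) fell, and Gm26953, which overlaps Miat on the other strand, stood at -0.89 (adjusted p = 0.106). Next to Snhg11 the lncRNA gene Snhg17 (0.20, adjusted p = 0.0571) and, inside Snhg11, the snoRNA gene Gm25129 (0.26, adjusted p = 0.0656) rose.

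Genes of the machinery these RNAs are known to meet showed small differences in females and none in males, where 0 genes of any list passed. Of 14 paraspeckle proteins 6 rose and 0 fell (median log2 difference 0.09), among them Sfpq (0.23, SE 0.037, adjusted p = 0.00362), Hnrnph3 (0.19) and Cpsf6 (0.21), RNA-binding proteins of the Neat1 body. Of 24 speckle and splicing proteins 11 rose and 1 fell (median 0.10), with Pnisr (0.22), Srrm1 (0.20) and Rbm25 (0.17, but -0.083 with offsets for GC content and length) at the lowest p. Of 11 subunits and cofactors of PRC2, a histone-methylating repressor complex that Meg3 can bind, 3 rose and 0 fell (median 0.08), namely Mtf2 (0.26), Eed (0.14) and Suz12 (0.12). The shares called higher are to be read beside the 13.1% of all genes, and no test of the lists was run.

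Of 13 genes that act on imprints or on DNA methylation, not all of them to maintain it, 2 rose and 1 fell (median -0.03). Tet2 differed by 0.18, Setdb1 by 0.09 and Trim28 by -0.10 on the log2 scale (Trim28 by 0.054 with offsets for GC content and length). Of 15 miRNA processing genes 5 rose and 1 fell (median 0.08), with Tnrc6a (0.20), Dgcr8 (0.14) and Dicer1 (0.16) leading. Imprinted genes outside the domain had 12 of 38 tested higher and 1 lower (median 0.15), and other autosomal lncRNAs 7 of 31 higher and 2 lower (median 0.08). Both lists held Kcnq1ot1 (0.45, SE 0.10), Snhg14 (0.31, SE 0.071) and Peg13 (-0.24, SE 0.059), and the second also Lncpint (0.44) and A330008L17Rik (0.44). With offsets for GC content and length Snhg14 turned to -0.28 (adjusted p = 0.0271), and with the share in no gene as covariate Kcnq1ot1 stood at -0.12 and Lncpint at -0.010.

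Across the 24 libraries the 3 maternal RNAs of the domain varied together, as a description without a test. On the log2 CPM scale Pearson's r was 0.93 between Meg3 and Rian, 0.92 between Meg3 and Mirg and 0.90 between Rian and Mirg, and for deviations from the group means it was 0.88, 0.89 and 0.86. Meg3 and Snhg11 had an r of 0.79 (0.56 for deviations), Meg3 and Malat1 of 0.56 (0.23), and Neat1 and Miat of 0.65 (0.71). Meg3 ran opposite to Neat1, with an r of -0.49 (-0.71), and to Miat, with -0.46 (-0.55). The points of each r share libraries, depth and tissue makeup.

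Among 14313 genes with a mean of at least 100 counts, those most like Meg3 over the 24 libraries were Cplane1 (r = 0.97), Aasdh (0.95), Gm32647 (0.94), Gm15328 (0.94) and Mccc1 (0.94), none of them on chromosome 12. Rian was most like Senp7 (0.97), Gm32647 (0.97) and Tial1 (0.97), and Mirg like Mccc1 (0.93), Srrm1 (0.93) and Akap8 (0.93). Malat1 was most like the unclassified gene models Gm38243 (0.90), Gm42767 (0.89) and Gm44926 (0.89). Neat1 had Sytl2 (0.87), Cast (0.87) and Ddhd1 (0.86) as its nearest genes, Miat had Srrm4 (0.97), Grk3 (0.97) and Mpdz (0.95), and Snhg11 had Nktr (0.89), 5330434G04Rik (0.89) and Sec61a2 (0.88). Srrm4 and Grk3 lie on chromosome 5, as does Miat, and Sec61a2 lies on chromosome 2, as does Snhg11.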

How the data were processed

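RNA was rRNA-depleted total RNA of bilateral NAc punches, sequenced as stranded 100 bp pairs. The authors aligned the reads with STAR 2.6.1b to mm10 with GENCODE M15 and deposited raw counts of read pairs per gene for 24 libraries, unstranded and for each strand. The submitters' notes also name CASAVA 1.8, HTSeq and DESeq2. The sense column was used here, the others only for antisense and unstranded values.

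Each comparison was fitted with edgeR 4.0.16 (R 4.3.3; filterByExpr with a minimum count of 10, TMM, robust quasi-likelihood F test) on its own libraries, the interaction on all 24, with Benjamini-Hochberg adjustment over all genes tested and a threshold of 0.10. The SE is the log2 difference over the root of F. Normalized counts are counts over DESeq2 1.42.0 size factors of all libraries. Estrous stages were not used because the labels give them also to males. Single values were compared by two-sided exact permutation tests, and correlations by 100000 permutations, with 3 library measures for 7 members making 21 relations. The p of a correlation is for all 24 libraries, with the differences between groups included. The surrogate variable came from sva 3.50.0. Other software was Python 3.11.15, numpy 2.4.6, pandas 2.3.3 and scipy 1.17.1. Of 52636 gene identifiers 52489 matched GENCODE M21, and sequences are from RefSeq.

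The members and lists were chosen with earlier results of these data known. Named genes were the members, tested domain genes, up to 3 genes per list with the smallest p in females, called or nearest tested genes within 100 kb of Malat1, Neat1, Miat and Snhg11, and the 5 (Meg3) or 3 genes of highest r; 1 neighbouring gene is not reported here. The step across genes was tested on simulated data. Depth was 39923666 to 70575745 counts per library. Alternatives covered normalization, filters, covariates, library sets and each library left out.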

Additional observations from a re-analysis of the deposited data

Results flagged for a closer look

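Of 28 groups of 6 libraries examined, for the 7 members in 4 groups, 3 held a library whose gap to the others exceeded 0.625 of the group's range, a size that chance gives in about 1 in 20 groups. The lowest Mirg count among MSUS females was 4508 in replicate 1, which also had the highest Miat count of its group, 8354. The highest Miat count among Con males was 9899 in replicate 5. Both libraries had the highest cortical marker sums of their groups.

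Reads antisense to Rtl1, outside the sense counts used for the comparisons, averaged 3797 normalized counts in MSUS females, above the Con females, with no overlap between these groups.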

How the results depend on the processing

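In females 5 members were called with DESeq2, other size factors, other filters, scaling without the 7 members or on protein-coding genes, unstranded counts, the library set as covariate, a threshold of 0.05 and every library left out (5 to 5). Leaving out MSF replicate 3 lowered the genes called from 5156 to 3102 and without MSF replicate 2 to 3358. Within library sets and with the share in no gene, the spliced share (a per-library value of the study, used as covariate only) or an oligodendrocyte score as covariate 0 members were called, and with offsets for GC content and length 3. Of the domain genes, 54 called higher became 1 and 0 within the sets, 0 with the share in no gene, 0 with the spliced share, 2 with the oligodendrocyte score, 17 with the cortical score, 13 with the offsets and 34 with 1 surrogate variable (38 to 59 with 1 library left out). Between Con sexes, 0 members and 544 genes became 3 and 1511 with DESeq2, 1 and 1862 with the oligodendrocyte score, and 1 and 51 with the surrogate variable. They became 0 and 11 with the share in no gene, 0 and 10 with the spliced share, 0 and 39 with the cortical score and 0 and 182 with the offsets. Without the libraries of highest cortical sums they became 2 and 1171, and with 1 library left out 0 to 2 members were called. The interaction, 0 members, became 1 with DESeq2 and 0 to 5 with 1 library left out. In males and between MSUS sexes 0 members were called under every alternative run. The smaller sets hold 3 against 3 mice. For the other settings the cause was not tested.

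Replicate numbers are shared by the groups, but same-numbered females did not deviate together (r from -0.245 to 0.255), so the numbers were not taken as pairs. With the replicate block 5 members, 47 domain genes and 3800 genes were called in females, and 0 members in the other comparisons, where genes called between Con sexes went from 544 to 12.

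Some values changed sign. With GC and length offsets Rian stood at -0.012 in females, 0.099 between Con sexes and -0.035 in the interaction, and in females Mir379 at -0.096, Mir376c at -0.52, Mir376b at -0.26, Rbm25 at -0.083, Trim28 at 0.054 and Snhg14 at -0.28 (adjusted p = 0.0271). With 1 surrogate variable Neat1 and Miat stood at 0.055 and 0.46 (adjusted p = 0.0156) in females and 0.10 and 0.30 in the interaction, Neat1 at -0.028 in males, Miat at -0.39 between Con sexes and Malat1 at -0.0018 between MSUS sexes. With the cortical score Neat1 and Miat stood at 0.069 and 0.44 in females and 0.10 and 0.31 in the interaction, Neat1 at -0.011 in males, and Miat at -0.31 between Con and 0.035 between MSUS sexes. Without the libraries of highest cortical sums, an alternative chosen after seeing the data, Neat1 and Miat stood at 0.022 and 0.35 in females, and Miat at 0.19 in the interaction. With the oligodendrocyte score Miat stood at 0.39 in females. Between MSUS sexes that score gave -0.15 for Meg3, -0.16 for Rian, -0.13 for Mirg, -0.19 for Malat1, 0.48 for Miat and -0.071 for Snhg11, and in the interaction 0.036 for Neat1 and 0.38 for Miat.

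With the share in no gene Neat1 stood at -0.0022 in males, Miat at -0.19 between Con sexes and 0.030 in the interaction, and Malat1 at -0.034 between MSUS sexes. In females Mir127 stood at -0.086, Kcnq1ot1 at -0.12 and Lncpint at -0.010. With the spliced share Neat1 stood at -0.0032 in males, Rian at 0.041 and Miat at -0.29 between Con sexes, Malat1 at -0.048 and Snhg11 at -0.0019 between MSUS sexes, and Miat at 0.029 in the interaction. In females Mir127 stood at -0.080, Trim28 at 0.025, Kcnq1ot1 at -0.14, Snhg14 at -0.052, Gm37376 at -0.12 and Tfip11 at 0.00037. Within set 1 to 12 Neat1 stood at -0.082 and Miat at -0.53 in males, Malat1 at -0.047 and Miat at 0.32 between MSUS sexes, and Neat1 at 0.034 and Miat at 0.24 in the interaction. Within set 13 to 24 males had -0.12 for Meg3, -0.14 for Rian, -0.13 for Mirg and -0.10 for Malat1.

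With 1 library left out Miat ranged from -0.52 to 0.020 in females and from -0.16 to 0.41 between Con sexes, in both cases changing sign without CONF replicate 3. In males Meg3 ranged from -0.039 to 0.090, Rian from -0.057 to 0.058, Malat1 from -0.023 to 0.060, Neat1 from -0.043 to 0.11, Miat from -0.11 to 0.41 and the difference in the share in no gene from -2.40 to 0.090 points.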
